A study of Sus scrofa with 4 samples.

Results

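The 9 genes described here, MDM2, CDKN1A, CDKN1B, CDKN1C, CDKN2A, CDKN2B, CDKN2C, RB1 and CCND2, belong to the p53 and cell cycle control pathways that act as barriers to reprogramming. They were taken from the 25880 genes of the pig count table by the symbol of their Ensembl identifier, and all 9 passed the filter on low counts. RNA had been sequenced from 4 porcine cultures that originated in ear skin fibroblasts of 1 post-neonatal pig. The groups were induced pluripotent stem cells (iPSCs; 2 clones, at passage 3), neural stem cell-like cells induced from the fibroblasts (iNSLCs; 1 library, at passage 1) and the starting fibroblasts (1 library, at passage 1). The iNSLCs were dome-shaped colonies that grew, by a protocol that uses mouse feeder cells, in a medium for naive-state pluripotent cells, after electroporation of episomal vectors. These vectors carried human OCT4, SOX2, KLF4, L-MYC, LIN28, KLF2, NANOG, GLIS1 and KDM4D, EGFP, and mp53DD, a dominant-negative form of mouse p53. The iPSC clones were picked after iNSLCs had been moved to a pluripotency medium supplemented with TGF-β1, activin A and IWP2, which inhibits WNT signalling. Loss of the vectors was checked in the study at a later passage than the one sequenced, so the iPSC and iNSLC cultures may both still have carried mp53DD.

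In mouse and human cells, p53 is a transcription factor that is stabilised by DNA damage and by oncogene activity. It induces CDKN1A, which encodes the CDK inhibitor p21, and MDM2, the ubiquitin ligase that marks p53 for degradation. The INK4 inhibitors, encoded by CDKN2A, CDKN2B, CDKN2C and CDKN2D, bind CDK4 and CDK6, the kinases that D-type cyclins such as CCND2 activate, whereas the CIP/KIP inhibitors, encoded by CDKN1A, CDKN1B and CDKN1C, act mainly on complexes of CDK2. The target of these kinases is RB1, a pocket protein that holds E2F factors inactive until it is phosphorylated. CDKN2A also encodes ARF, an inhibitor of MDM2, from another first exon, and removal of p53 or of the CDKN2A-CDKN2B locus raises the efficiency of reprogramming in mouse and human fibroblasts.

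Total counts were 21640374 and 41296933 in iPSC clones 1 and 2, 25784594 in the iNSLC library and 62421521 in the fibroblast library, so a level of 3 counts corresponded to between 0.0648 and 0.127 CPM (counts relative to library size, scaled with TMM). The 12 fibroblast markers, each detected in every library, summed to 1037 and 969 CPM in the iPSC clones, 53625 CPM in iNSLCs and 139305 CPM in fibroblasts. COL1A1, COL1A2 and COL3A1 held most of the sums in iNSLCs (21575, 13083 and 16657 CPM) and fibroblasts (64539, 50909 and 19211 CPM). POSTN alone was higher in iNSLCs than in fibroblasts (702 and 39.5 CPM). The 8 pluripotency markers summed to 1128 and 1115 CPM in the iPSC clones, 442 CPM in iNSLCs and 1.32 CPM in fibroblasts, where 2 of them had no counts. POU5F1 (OCT4), SOX2, LIN28A and NANOG, whose human forms the vectors carried, held most of the iNSLC sum (40.5, 134, 202 and 0.209 CPM). Whether reads from the vectors were counted in these rows was not tested. The 6 neural stem cell markers summed to 564 and 632 CPM in iPSCs, 644 CPM in iNSLCs and 52.4 CPM in fibroblasts, where 3 had no counts. NES held most of these sums in iPSCs (461 and 505 CPM) and iNSLCs (384 CPM). In the edgeR test 4 of the 6 were lower in iPSCs than in iNSLCs and 0 were higher (median log2 ratio -1.86). PAX6 was highest in fibroblasts (21.5 CPM, and 14.6 CPM in iNSLCs). In bulk RNA, fewer cells of a type and less RNA per cell cannot be told apart. The part that fibroblast-type cells within the iNSLC culture played in the values below was not tested.

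The INK4 members were lower in both iPSC clones than in either other library. The 3 members CDKN2A, CDKN2B and CDKN2C fell against fibroblasts and against iNSLCs. CDKN2C, the gene of p18INK4c, had 32 and 44 counts in the iPSC clones, 303 in iNSLCs and 596 in fibroblasts. This corresponded to 1.35 and 0.96 CPM in the iPSC clones, 10.6 CPM in iNSLCs and 12.9 CPM in fibroblasts. Its level in iPSCs, 1.16 ± 0.275 CPM (SD, n = 2), was 11.6-fold lower than in fibroblasts (log2 ratio -3.53 ± 0.30 SE, edgeR adjusted p = 0.00168) and 9.51-fold lower than in iNSLCs (-3.25 ± 0.31, adjusted p = 0.00813). Both clones thus lay well apart from the other 2 libraries, which were close to each other: the iNSLC level was 0.822 times that of fibroblasts (95% counting interval 0.713 to 0.945), and the order of these 2 libraries turned round when total counts were used for scaling (log2 ratio 0.30).

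CDKN2B, the gene of p15INK4b, which TGF-β induces in human epithelial cells, had 99 and 148 counts in the iPSC clones, 368 in iNSLCs and 911 in fibroblasts. Its levels were 4.18 and 3.23 CPM in the iPSC clones, 12.8 CPM in iNSLCs and 19.7 CPM in fibroblasts. The libraries therefore stood in the order fibroblasts, iNSLCs, iPSCs, with no overlap between the clones and the rest. The iPSC level was 5.41-fold lower than that of fibroblasts (-2.44 ± 0.24, adjusted p = 0.00246) and 3.53-fold lower than that of iNSLCs (-1.82 ± 0.26, adjusted p = 0.0162). The medium in which the iPSCs were grown contained TGF-β1 and activin A, and the relation of that to the level of CDKN2B was not tested.

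CDKN2A had a different order. Its counts were 71 and 61 in the iPSC clones, 497 in iNSLCs and 414 in fibroblasts, which gave 3.0 and 1.33 CPM in the iPSC clones, 17.3 CPM in iNSLCs and 8.94 CPM in fibroblasts. The iNSLC library was the highest, at 1.94 times the fibroblast level (95% counting interval 1.70 to 2.22), and the clones were the lowest. In iPSCs CDKN2A was 4.47-fold lower than in fibroblasts (-2.16 ± 0.46, adjusted p = 0.0180) and 8.67-fold lower than in iNSLCs (-3.12 ± 0.45, adjusted p = 0.0167). These values depended on the clone. The fold against fibroblasts was 6.69 with clone 2 alone and 2.98 with clone 1 alone, and that against iNSLCs was 13.0 with clone 2 alone and 5.78 with clone 1 alone. The row counts 746 exon bases on chromosome 1 (Sscrofa11.1, 200774496 to 200798854, plus strand), and the RefSeq annotation names the same locus P14ARF, so that transcripts of p16INK4a and of ARF cannot be told apart in it. CDKN2B lies just before it on the same strand (200761004 to 200770633).

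**Figure D1:**
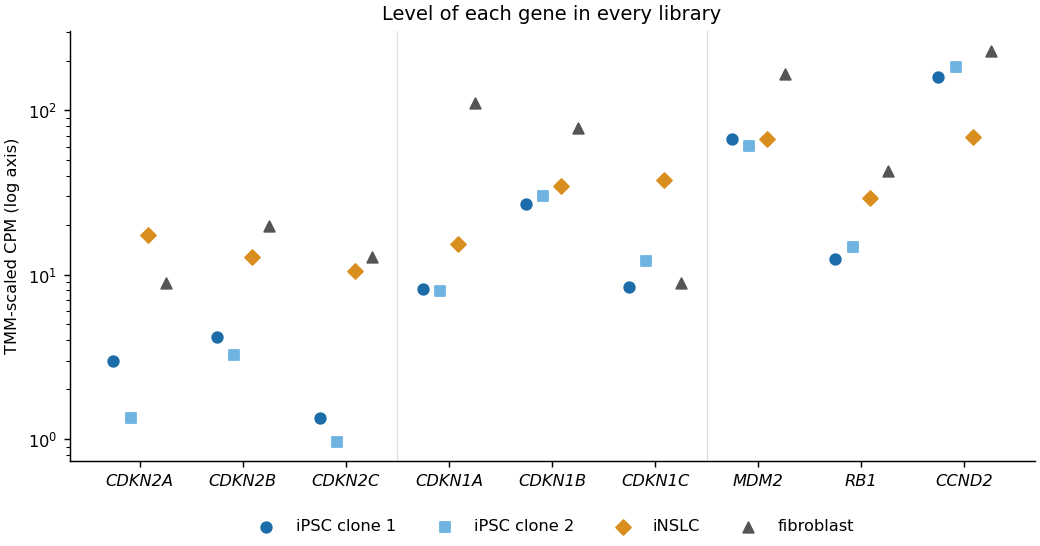
TMM-scaled CPM (log axis) of the 9 genes in each of the 4 libraries, with 1 point per library: iPSC clones 1 and 2, iNSLCs and fibroblasts. The clones lie close together for each gene except CDKN2A (3.0 and 1.33 CPM), and the iNSLC point is the highest of the 4 for CDKN2A and CDKN1C and the lowest for CCND2.

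Among the CIP/KIP inhibitors, CDKN1A fell furthest against fibroblasts, CDKN1B fell less, and CDKN1C did not pass the test. CDKN1A had 194 and 361 counts in the iPSC clones, 437 in iNSLCs and 5103 in fibroblasts. The levels were 8.19 and 7.89 CPM in the iPSC clones, 15.2 CPM in iNSLCs and 110 CPM in fibroblasts, so the fibroblast library stood far above the other 3. The iPSC level, 8.04 ± 0.213 CPM (SD, n = 2), was 13.7-fold lower than in fibroblasts (-3.78 ± 0.13, adjusted p = 0.000428) and 1.90-fold lower than in iNSLCs (-0.93 ± 0.14, adjusted p = 0.0197). Between the lone libraries, iNSLCs had 0.138 times the fibroblast level (95% counting interval 0.125 to 0.153), a 7.23-fold lower value. The CDKN1A row (chromosome 7, 32359455 to 32362271, plus strand) holds only 474 exon bases, a multiple of 3, inside a RefSeq gene that runs from 32354776 to 32363771, so reads from most of the untranslated sequence were not counted there.

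CDKN1B, which encodes p27, a brake on the entry into S phase that the SKP2 ubiquitin ligase removes, had 638 and 1376 counts in the iPSC clones, 995 in iNSLCs and 3624 in fibroblasts. This gave 26.9 and 30.1 CPM in the iPSC clones, 34.7 CPM in iNSLCs and 78.2 CPM in fibroblasts. The clones and the iNSLC library were similar and the fibroblast library was apart. CDKN1B was 2.74-fold lower in iPSCs than in fibroblasts (-1.45 ± 0.14, adjusted p = 0.00211). The difference from iNSLCs was not called (-0.28 ± 0.14, adjusted p = 0.206). SKP2 itself was at 118 and 135 CPM in the iPSC clones, 140 CPM in iNSLCs and 21.0 CPM in fibroblasts, and rose in iPSCs against fibroblasts (log2 ratio 2.60).

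CDKN1C encodes p57, an inhibitor that is imprinted in mouse and human and is known for its role in the exit of progenitors from the cell cycle. It had 198 and 553 counts in the iPSC clones, 1083 in iNSLCs and 411 in fibroblasts, equal to 8.36 and 12.1 CPM in the iPSC clones, 37.8 CPM in iNSLCs and 8.87 CPM in fibroblasts. The iNSLC library alone was high, and the fibroblast value lay between those of the clones. CDKN1C was 3.64-fold lower in iPSCs than in iNSLCs (-1.87 ± 0.26, adjusted p = 0.0159), and it did not pass the test against fibroblasts (0.22 ± 0.28, adjusted p = 0.524; -0.09 with clone 1 alone). iNSLCs had 4.26 times the fibroblast level (95% counting interval 3.80 to 4.78). The genes around CDKN1C on chromosome 2 gave other patterns. NAP1L4, a histone chaperone gene, was at 242 and 253 CPM in the iPSC clones, 189 CPM in iNSLCs and 163 CPM in fibroblasts, and PHLDA2, another gene of the imprinted cluster, was at 9.80 and 7.32 CPM in the iPSC clones, 0.977 CPM in iNSLCs and 14.3 CPM in fibroblasts.

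MDM2 had 1588 and 2750 counts in the iPSC clones, 1905 in iNSLCs and 7657 in fibroblasts. The levels of 67.0 and 60.1 CPM in the iPSC clones and 66.5 CPM in iNSLCs were nearly equal, and the level of 165 CPM in fibroblasts was above them all. In iPSCs MDM2 was 2.60-fold lower than in fibroblasts (-1.38 ± 0.12, adjusted p = 0.00187) and did not pass the test against iNSLCs (-0.07 ± 0.13, adjusted p = 0.718). The MDM2 row (chromosome 5, 33087010 to 33164514, plus strand) reaches past both ends of the RefSeq gene (33105717 to 33137602). Of its exon bases, 80.2% lie inside that gene. MDM4, which encodes the partner of MDM2 that blocks p53 transactivation, was at 18.8 and 15.6 CPM in the iPSC clones, 56.0 CPM in iNSLCs and 40.9 CPM in fibroblasts. It fell in iPSCs against fibroblasts (-1.26 ± 0.17, adjusted p = 0.00538) and against iNSLCs (-1.71 ± 0.17, adjusted p = 0.00844).

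RB1 had 295 and 670 counts in the iPSC clones, 841 in iNSLCs and 1986 in fibroblasts, which gave 12.5 and 14.6 CPM in the iPSC clones, 29.3 CPM in iNSLCs and 42.9 CPM in fibroblasts. The clones were below both other libraries. In iPSCs RB1 was 3.15-fold lower than in fibroblasts (-1.65 ± 0.17, adjusted p = 0.00263) and 2.15-fold lower than in iNSLCs (-1.11 ± 0.17, adjusted p = 0.0201). A gene on the opposite strand, at the position of LPAR6 in RefSeq, lies in an intron of RB1 on chromosome 11 and shares 0 exon bases with it. Of the other pocket proteins, which share the E2F-binding domain of RB1, RBL2 fell in iPSCs against fibroblasts (-2.06 ± 0.18, adjusted p = 0.00185) and iNSLCs (-2.24 ± 0.18, adjusted p = 0.00623). RBL1, the pocket protein gene that E2F factors induce in cycling cells, went the other way against fibroblasts (0.90 ± 0.12, adjusted p = 0.00549), with 98.7 and 106 CPM in the iPSC clones, 101 CPM in iNSLCs and 55.1 CPM in fibroblasts.

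CCND2, the only activator of the cycle among the 9 genes, encodes a D-type cyclin. It had 3759 and 8376 counts in the iPSC clones, 1967 in iNSLCs and 10631 in fibroblasts, or 159 and 183 CPM in the iPSC clones, 68.6 CPM in iNSLCs and 230 CPM in fibroblasts. It was the one member whose iNSLC level lay below those of all other libraries. CCND2 rose 2.49-fold in iPSCs against iNSLCs (1.32 ± 0.14, adjusted p = 0.00994). Against fibroblasts it did not pass the test (-0.43 ± 0.13, adjusted p = 0.0521). That call changed with the scaling and the samples used: adjusted p was 0.0459 with RLE scaling and 0.0285 in a fit without iNSLCs, and the ratio turned to 0.15 with total counts (adjusted p = 0.409). Only 19.2% of the exon bases of the CCND2 row lie inside the RefSeq gene, since the row runs on past its 3′ end. The span of a RefSeq lncRNA gene, LOC106507534 (66112377 to 66138172), covers 477 exon bases of the row.

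CCND1, the D cyclin gene most expressed in these libraries, moved like CCND2. It was at 249 and 281 CPM in the iPSC clones, 91.9 CPM in iNSLCs and 305 CPM in fibroblasts, rose in iPSCs against iNSLCs (1.53 ± 0.14, adjusted p = 0.00716) and was not called against fibroblasts (-0.20 ± 0.13, adjusted p = 0.226; 0.37 with total counts). CCND3 differed from both, with 11.8 and 9.75 CPM in the iPSC clones, 10.6 CPM in iNSLCs and 66.8 CPM in fibroblasts, and fell in iPSCs against fibroblasts (-2.64 ± 0.18, adjusted p = 0.00100). Of the kinases that the D cyclins activate, CDK6 fell in iPSCs against fibroblasts (-1.21 ± 0.12, adjusted p = 0.00226) and rose against iNSLCs (0.79 ± 0.13, adjusted p = 0.0213). CDK4, at 110 and 121 CPM in the iPSC clones, 161 CPM in iNSLCs and 119 CPM in fibroblasts, was called in neither comparison (-0.04 ± 0.12, adjusted p = 0.768 against fibroblasts; -0.47 ± 0.12, adjusted p = 0.0521 against iNSLCs), though it passed against fibroblasts with total counts (0.53, adjusted p = 0.0215) and against iNSLCs with total counts (-0.49, adjusted p = 0.0479) or without the fibroblast library (-0.49, adjusted p = 0.0366).

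Counted together, 7 of the 9 members fell in iPSCs against fibroblasts and 0 rose, where the fit called 28.2% of 15739 genes lower and 29.6% higher. The 2 that were not called were CDKN1C and CCND2. The number that rose in the edgeR test was also 0 at an unadjusted p under 0.05 and with DESeq2. The median log2 ratio of the members was -1.65, and that of all genes was 0.11. Against iNSLCs 6 members fell and 1, CCND2, rose, where 14.2% of all genes were called lower and 13.1% higher, and the medians were -1.11 for the members and 0.00 for all genes. MDM2 and CDKN1B were the members not called there. The 5 members CDKN1A, CDKN2A, CDKN2B, CDKN2C and RB1 fell in both comparisons, as did 8.15% of the genes tested, and these comparisons share the iPSC libraries. The TMM factors were 1.09 to 1.11 in the iPSC and iNSLC libraries and 0.742 in the fibroblast library, and scaling by total counts raised the log2 ratios of iPSCs to fibroblasts by 0.57. It called 7264 genes higher and 2754 lower, in place of 4651 and 4440, and the members called were still 7, all lower. The lone iNSLC and fibroblast libraries were assumed in this fit to vary like the clones, which left 1 residual degree of freedom. The p-values measure only the spread between 2 clones of 1 animal. The members were chosen with earlier results of these data known, so the counts of members called are not independent evidence about the group.

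**Figure D2:**
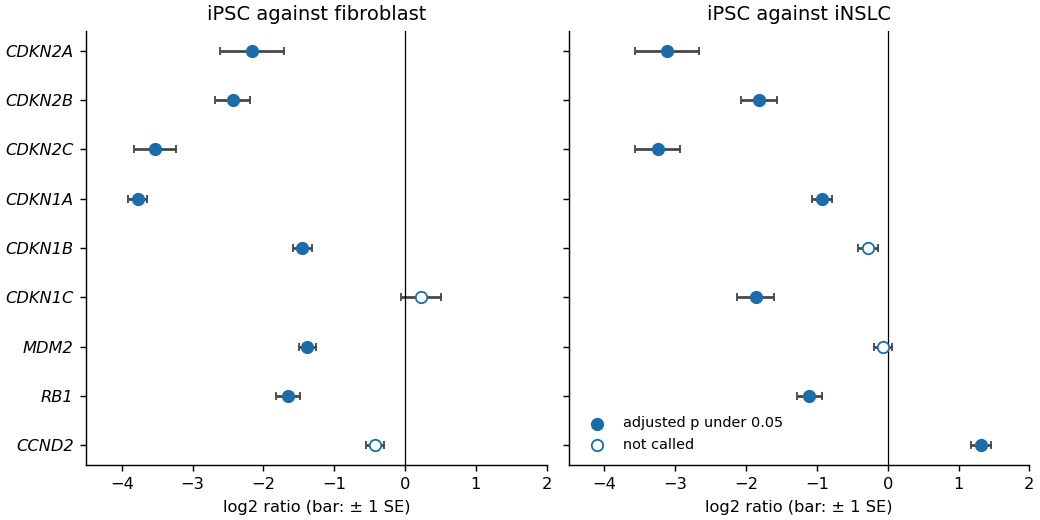
Log2 ratios of iPSCs to fibroblasts (left) and of iPSCs to iNSLCs (right) from the edgeR fit, with bars of 1 SE on each side; filled points passed the adjusted p threshold of 0.05. The 7 filled points on the left lie between -3.78 for CDKN1A and -1.38 for MDM2, and on the right CCND2 (1.32) is alone on the positive side.

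Without replicates, iNSLCs and fibroblasts were compared by size alone, with a fold of at least 4 and at least 10 CPM in the higher library. CDKN1C (4.26-fold) was past that size on the higher side and CDKN1A (7.23-fold) on the lower side. Of the 10079 genes with 10 CPM in either library, 9.2% were past it on the higher side and 8.88% on the lower. At a fold of 2, MDM2 (0.402 times the fibroblast level), CDKN1B (0.444 times) and CCND2 (0.299 times) joined CDKN1A, which made 4 members lower and 1 higher, where 22.8% and 16.9% of the genes were. The INK4 members and RB1 were within 2-fold. These values depended on the scaling: with total counts CDKN2A was 2.91-fold higher in iNSLCs, and MDM2 (1.66-fold lower) and CDKN1B were within 2-fold. For 5 members, CDKN1A, CDKN1B, CDKN2B, CDKN2C and RB1, the fibroblast level was above that of iNSLCs and the iNSLC level above that of both clones, an order that 19.1% of all tested genes had. With total counts this order held for 4 members, MDM2, CDKN1A, CDKN1B and CDKN2B, and for 11.6% of all tested genes, since iNSLCs then had slightly more CDKN2C and RB1 than fibroblasts (log2 ratio 0.30 and 0.04). CDKN1C and CDKN2A were highest in iNSLCs, as were 25.8% of all genes, and CCND2 was lowest there, as were 23.0%.

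The 2 clones were compared by size as well. MDM2, CDKN1B, CDKN1C, RB1 and CCND2, the members at 10 CPM or more in either clone, were all within 4-fold, and so few genes were past that size (0.357%) that this says little about the members. The ratio of clone 2 to clone 1 ranged from 0.712 for CDKN2C (95% counting interval 0.441 to 1.16) to 1.45 for CDKN1C (1.23 to 1.71), except for CDKN2A. CDKN2A was 2.25-fold lower in clone 2 (ratio 0.445, interval 0.311 to 0.635), and it was the only member past 2-fold at 1 CPM, where 3.22% of genes were lower by that much in clone 2 and 1.79% higher. It rested on 61 counts in clone 2 and 71 in clone 1, of libraries that differed in depth. CDKN1A was the closest pair, at 7.89 CPM in clone 2 and 8.19 CPM in clone 1. These intervals cover counting error only, and with 1 library per clone no test was made.

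To compare genes with each other, counts were divided by exon length and expressed relative to the library's sum of such values (TPM). CDKN1A was the most abundant CIP/KIP transcript in every library, with 56.3 and 55.3 TPM in the iPSC clones, 113 TPM in iNSLCs and 580 TPM in fibroblasts. It took 66.3% and 60.6% of the summed CIP/KIP level in the iPSC clones, 59.9% in iNSLCs and 92.2% in fibroblasts. CDKN1C, by contrast, took 12.1% and 16.6% in the iPSC clones, 26.6% in iNSLCs and 1.33% in fibroblasts. The sum itself was 84.9 and 91.3 TPM in the iPSC clones, 188 TPM in iNSLCs and 629 TPM in fibroblasts. TPM depends on the gene model, most of all for the short CDKN1A and CDKN2A rows and for CCND2. The CCND2 row lies mostly outside its RefSeq gene. The MDM2, CDKN1B and CDKN1C rows also reach outside theirs, with 80.2%, 81.9% and 81.8% of their exon bases inside. The TPM of all these genes is therefore less certain in these shares and in the ratios that follow.

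Within the INK4 family, CDKN2A was the most abundant transcript in iPSC clone 1, iNSLCs and fibroblasts, but not in clone 2. It held 56.2% and 39.6% of the family sum in the iPSC clones, 76.4% in iNSLCs and 55.4% in fibroblasts. These shares and the sum may include ARF, which the CDKN2A row cannot tell apart from p16INK4a. CDKN2D, which encodes p19INK4d and is not among the 9 genes, had 28.3% and 42.2% in the iPSC clones, 4.11% in iNSLCs and 8.70% in fibroblasts. Its own level hardly moved, with 3.0 and 2.82 CPM in the iPSC clones, 1.85 CPM in iNSLCs and 2.79 CPM in fibroblasts, and it was not called against fibroblasts (0.05 ± 0.31, adjusted p = 0.893) or iNSLCs (0.64 ± 0.37, adjusted p = 0.250). The INK4 sum was 23.3 and 15.0 TPM in the iPSC clones, 106 TPM in iNSLCs and 53.9 TPM in fibroblasts.

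**Figure D3:**
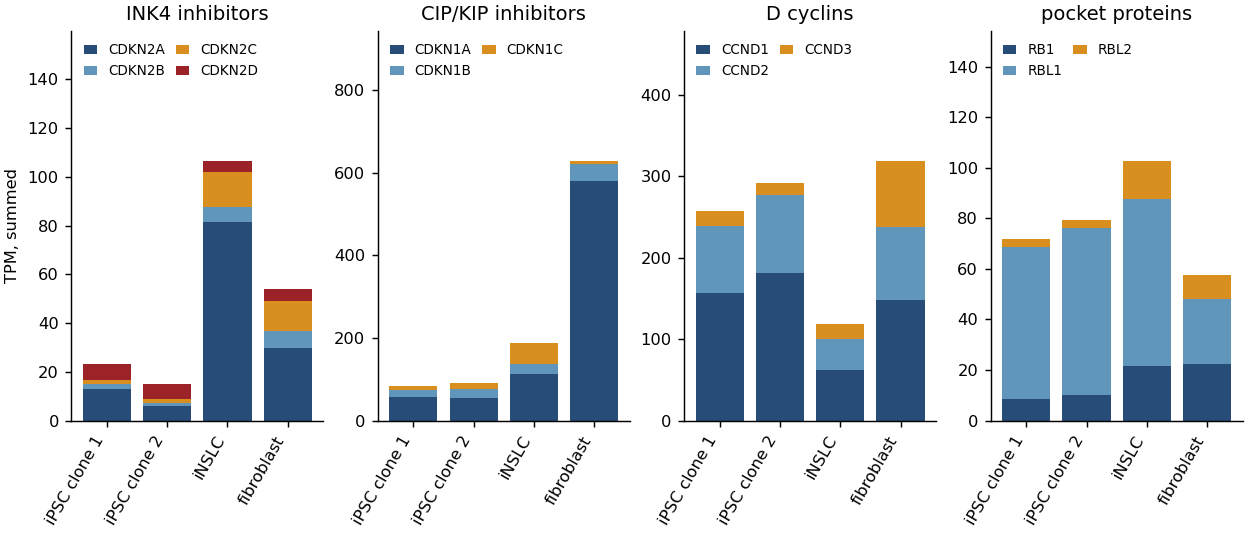
Summed TPM of the INK4 inhibitors, the CIP/KIP inhibitors, the D cyclins and the pocket proteins in each library, stacked by gene, each panel with its own axis from 0. CDKN2A makes up 76.4% of the tall INK4 bar of iNSLCs, CDKN1A 92.2% of the tall CIP/KIP bar of fibroblasts, and RBL1 83.8% and 83.6% of the pocket protein bars of the iPSC clones. The CDKN2A row may also count ARF.

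Of the 10 tested genes for cyclins, CDKs and their activators in the G1 and S phases, 3 rose and 2 fell in iPSCs against fibroblasts. Against iNSLCs 2 rose. Of all tested genes, 29.6% rose and 28.2% fell against fibroblasts and 13.1% rose against iNSLCs, so these counts say little about the list. The D cyclin sum was 257 and 293 TPM in the iPSC clones, 118 TPM in iNSLCs and 319 TPM in fibroblasts, and CCND2 held a steady part of it. Its share was 31.6% and 32.6% in the iPSC clones, 31.9% in iNSLCs and 28.2% in fibroblasts. CCND3, in contrast, had 7.28% and 5.40% in the iPSC clones, 15.4% in iNSLCs and 25.5% in fibroblasts. RB1 formed 11.8% and 12.8% of the pocket protein sum in the iPSC clones, 20.9% in iNSLCs and 38.7% in fibroblasts. RBL1 exceeded RB1 in every library, by 7.13 and 6.53 times in the iPSC clones, 3.09 times in iNSLCs and 1.16 times in fibroblasts.

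Ratios within a library do not depend on the scaling between libraries. CDKN1A per CCND2 transcript was 0.693 and 0.579 in the iPSC clones, 2.98 in iNSLCs and 6.45 in fibroblasts. Since both gene models are in doubt, the order of these ratios between libraries can be read but not the side of 1 on which they fall. MDM2 per MDM4 set iNSLCs apart, with 4.06 and 4.40 in the iPSC clones, 1.35 in iNSLCs and 4.61 in fibroblasts. The summed CIP/KIP inhibitors per D cyclin were 0.330 and 0.312 in the iPSC clones, 1.59 in iNSLCs and 1.97 in fibroblasts. CDKN1A, whose row is short, held 92.2% of the CIP/KIP sum in fibroblasts, 59.9% in iNSLCs and 66.3% and 60.6% in the clones. The order of iNSLCs and fibroblasts on this ratio therefore rested on CDKN1A. With CDKN1B and CDKN1C alone, iNSLCs would lie above fibroblasts, and the clones would lie closer to fibroblasts but still below them. The summed INK4 inhibitors per CDK4 and CDK6 were 0.219 and 0.129 in the iPSC clones, 0.760 in iNSLCs and 0.472 in fibroblasts. On both of these ratios of inhibitor to activator transcripts, the clones were below the other 2 libraries, and on the INK4 ratio iNSLCs were above fibroblasts. On the INK4 ratio the order of iNSLCs and fibroblasts rested on CDKN2A, whose row may also count ARF. Without CDKN2A the INK4 ratio was 0.0958 and 0.0779 in the iPSC clones, 0.179 in iNSLCs and 0.210 in fibroblasts.

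**Figure D4:**
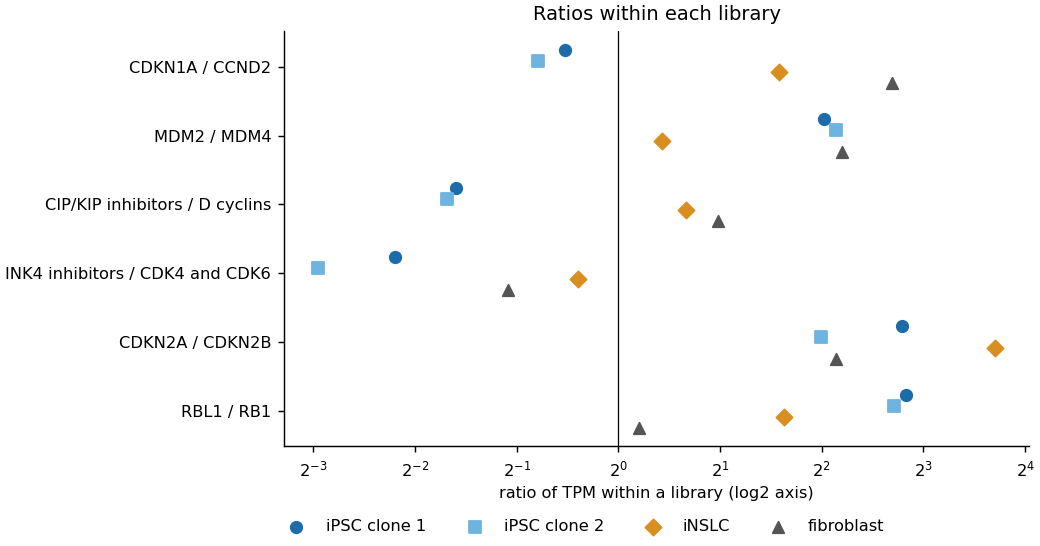
Ratios of TPM between genes or summed families within each of the 4 libraries, on a log2 axis, with 1 point per library. The iPSC clones lie furthest to the left for CDKN1A per CCND2 (0.693 and 0.579) and for both inhibitor sums, and iNSLCs are furthest to the left for MDM2 per MDM4 (1.35).

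Other direct targets of p53 known from human cells were compared beside CDKN1A and MDM2. Of 30 listed genes 28 were found and 26 were tested: 15 fell in iPSCs against fibroblasts, 4 rose and 7 were not called, with a median log2 ratio of -0.98. PHLDA3 (-3.50), which restrains AKT, GDF15 (-3.45), a secreted stress factor, and ZMAT3 (-2.87), an RNA-binding protein gene, fell. PERP (5.51), a desmosome gene of epithelia, and TP53I3 (3.05), an oxidoreductase gene, rose. The 3 epithelial markers, with which PERP moved, summed to 7538 and 7035 CPM in the iPSC clones, 1475 CPM in iNSLCs and 8.77 CPM in fibroblasts, and their part in it was not tested. Against iNSLCs 4 of the 26 targets fell, 5 rose and 17 were not called (median 0.12), with ZMAT3 (-1.56) and the DNA repair gene XPC (-1.27) lower and PLK2 (2.42) and the proapoptotic gene PMAIP1 (2.38) higher. PLK2 (1.78 against iNSLCs with clone 2 alone) and GDF15 (-2.86 against fibroblasts with clone 1 alone) depended on the clone. CDKN1A (-0.93) was thus lower in iPSCs than in iNSLCs while the median of the listed targets was slightly above 0. Of all tested genes, 28.2% fell and 29.6% rose against fibroblasts, and 14.2% fell and 13.1% rose against iNSLCs.

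Of 11 genes for relatives and regulators of p53, 5 rose in iPSCs against fibroblasts and 3 fell. Those that rose included the checkpoint kinase genes CHEK1 (2.48) and CHEK2 (1.40), and those that fell included ATM (-1.27), the kinase gene upstream of p53 in the response to DNA breaks. Against iNSLCs 0 rose (1 at an unadjusted p under 0.05 in edgeR, 0 with DESeq2) and 4 fell, namely MDM4, TP53BP1 (-1.03), ATM (-0.74) and CHEK2 (-0.64). In the list of other pocket proteins and E2F factors, 8 of 12 rose against fibroblasts and 1 fell. E2F7 (3.17) and E2F8 (2.03), which repress E2F targets, and E2F5 (3.16) were the highest. Against iNSLCs 1 of these 12 rose and 2 fell. Beside both lists, 29.6% of all tested genes rose and 28.2% fell against fibroblasts, and 13.1% rose and 14.2% fell against iNSLCs.

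**Figure D5:**
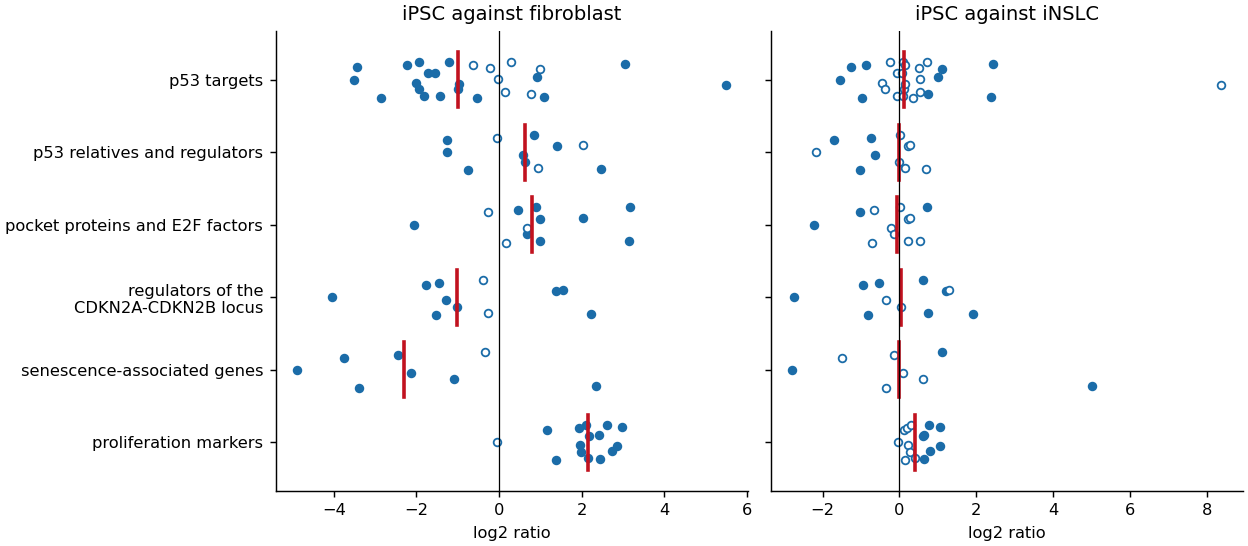
Log2 ratios of single genes in 6 lists, for iPSCs against fibroblasts (left) and iPSCs against iNSLCs (right). Filled points passed the adjusted p threshold of 0.05, hollow points did not, and red bars are list medians, which run from -2.29 (senescence-associated genes) to 2.15 (proliferation markers) on the left and lie between -0.06 and 0.40 on the right. The hollow point at 8.37 on the right is GDF15, which had 0 counts in iNSLCs, so that its position depends on the prior count of the fit.

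Of 11 tested regulators of the CDKN2A-CDKN2B locus known from mouse and human cells, 3 rose in iPSCs against fibroblasts and 6 fell, with a median of -1.02. The subunits of the Polycomb complexes that silence the locus went both ways: EZH2 (2.23) and RNF2 (1.56) rose, and BMI1 (-1.52), CBX8 (-1.46) and RING1 (-1.02) fell. TBX2 (-4.05), a repressor of the locus, and ETS1 (-1.76), an activator of p16INK4a, fell. Against iNSLCs 4 rose and 4 fell, with TBX2 (1.93), ETS1 (1.21) and the Polycomb gene RNF2 (0.75) higher and the Polycomb genes CBX8 (-2.75), RING1 (-0.95), BMI1 (-0.81) and EZH2 (-0.53) lower in iPSCs. CBX8 differed between the clones (1.31 and 2.91 CPM in clones 1 and 2), and with clone 1 alone its ratio was -2.24 to fibroblasts and -3.54 to iNSLCs. MTAP, which neighbours CDKN2A and CDKN2B in mouse and human, did not move with them: it was at 107 and 107 CPM in the iPSC clones, 61.3 CPM in iNSLCs and 114 CPM in fibroblasts. It was not called against fibroblasts (-0.09), though it passed with total counts (0.48, adjusted p = 0.0206), and it rose against iNSLCs (0.80). Across the 8 genes listed as neighbours of member loci, 4 rose against fibroblasts, 4 rose against iNSLCs and 0 fell in either comparison. At an unadjusted p under 0.05 in edgeR, 1 fell against fibroblasts and 0 against iNSLCs, and with DESeq2 0 fell in both. For this list and the regulators, the shares of all tested genes were 29.6% higher and 28.2% lower against fibroblasts. Against iNSLCs the shares were 13.1% higher and 14.2% lower.

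Proliferation markers and genes listed as senescence-associated differed between the libraries as well. Whether any culture held senescent cells was not tested. Of 15 tested proliferation markers 14 rose in iPSCs against fibroblasts and 0 fell (median 2.15), with MCM2 (2.97), part of the replicative helicase, and CDK1 (2.85), the mitotic kinase gene, at the top. Their sum was 3481 and 3820 CPM in the iPSC clones, 2836 CPM in iNSLCs and 885 CPM in fibroblasts. Against iNSLCs 7 rose and 0 fell (median 0.40), and CCNB1 (1.06) and CDK1 (1.04) were the highest of these. The number that fell was 0 in both comparisons also at an unadjusted p under 0.05 in edgeR and with DESeq2. Of 8 senescence-associated genes 6 fell in iPSCs against fibroblasts and 1, LMNB1 (2.35), rose (median -2.29). IL6 (-4.89) and IGFBP5 (-3.75), which encode secreted proteins, fell furthest. The list was not divided by the direction that its genes take in senescent cells. Against iNSLCs 1 fell, IGFBP5 (-2.80), and 2 rose, CXCL8 (5.0) and SERPINE2 (1.10). Beside these 2 lists, 29.6% of all tested genes rose and 28.2% fell against fibroblasts, and 13.1% rose and 14.2% fell against iNSLCs. The part of the share of cycling cells and of fibroblast-type cells in the levels of the members was not tested.

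The genes whose profile over the 4 libraries was closest to each member were sought for the 5 members with a range of at least 2 in log2(CPM + 1). The measure was the root mean square difference of log2(CPM + 1) after each gene was centred on its own mean. For CDKN1A these were TNS2 (0.03), ANKRD29 (0.04) and SORBS3 (0.07), and for CDKN1C they were KLHDC8B (0.03), ADAMTS3 (0.09) and IRX5 (0.12). For CDKN2B they were DSEL (0.05), PPP1R3E (0.06) and IL13RA1 (0.09). CDKN2A and CDKN2C had less close matches, with RHOBTB1 (0.19), PSMB9 (0.25) and FAM198A (0.26) for CDKN2A and IFI30 (0.13), CDH18 (0.16) and GPNMB (0.16) for CDKN2C. No list of the 5 contained another member, but only the 3 nearest of all genes with a symbol at 10 CPM or more were taken. That absence therefore says little about the members. The 4 libraries also leave many genes with like profiles.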

How the data were processed

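Raw read counts per gene of 4 libraries, deposited by the authors with exon coordinates and lengths, were used. The submitters' notes name Trim Galore 0.4.0 for trimming, STAR 2.5.3a for alignment (assembly Sscrofa11.1) and featureCounts 1.5.2 for counting. Strand use in counting: not given in the sources used here. Symbols came from Ensembl identifiers (14857 genes, the 9 members included) or the position of 1 RefSeq gene (1664 genes); 159 of 168 listed symbols were found.

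Counts of 15739 genes that passed filterByExpr were scaled with TMM and fitted with the edgeR 4.0.16 quasi-likelihood test (R 4.3.3, 3 groups). P-values had Benjamini-Hochberg adjustment over all genes, with a threshold of 0.05. The common biological coefficient of variation was 0.198. The test was also run on simulated counts with this same variation in every library. Such counts cannot check the assumption that the lone libraries vary like the clones. SE is the size of the log2 ratio over the root of F. iNSLCs against fibroblasts and clone 2 against clone 1 have no test: ratios carry 95% exact conditional binomial intervals, for counting error only, and sizes of at least 4-fold at 10 CPM were counted. TPM was computed from counts and exon length. Named were all members, up to 4 called genes by size per list and comparison, 7 fixed genes (MDM4, RBL1, RBL2, CDK4, CDK6, CCND1 and CCND3) and the 3 nearest profiles. CDKN2D, BMI1, LMNB1 and the single cell type marker genes were added after their values were seen. LMNB1 and the markers are not in the counts of alternatives below. Some listed genes are not reported here. Members and lists were chosen with earlier results of these data known. Alternatives were RLE and total-count scaling, no filter, 2 groups only, DESeq2 1.42.0, leaving out each clone, and other sizes.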

Additional observations from a re-analysis of the deposited data

How the results depend on the processing

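Under RLE scaling, total counts, no low-count filter, 2 groups only and DESeq2, the members called in iPSCs against fibroblasts were 7 or 8, and against iNSLCs 7 in each. The 8th was CCND2 with RLE scaling (-0.44) and with 2 groups only (-0.48). All genes called numbered 9091 against fibroblasts, from 7733 with DESeq2 to 10018 with total counts, and 4299 against iNSLCs, from 2910 without the filter to 4608 with 2 groups only. Total counts turned round the ratio to fibroblasts of CCND2 (0.15), CCND1 (0.37), CDK4 (0.53), MTAP (0.48) and TP53BP1 (0.51), none of which was called before; CDK4 (adjusted p = 0.0215), MTAP (0.0206) and TP53BP1 (0.0210) then passed the test. Against iNSLCs, CCND3 changed sign around 0 with total counts (-0.0078), without the filter (-0.0027) and with 2 groups only (-0.013), and CDKN2D did so against fibroblasts without the filter (-0.016). With a fold of 2 in place of 4, 5 members were past the size in iNSLCs against fibroblasts. Of 90 member values under an alternative with a test, 87 kept their direction and call, and of 520 values of other named genes 488 did; the cause of the other changes was not tested. Of 72 member values with no test, 68 kept their direction: with clone 1 alone CDKN1C against fibroblasts was -0.09 and MDM2 against iNSLCs 0.01, and with total counts CDKN2C and RB1 in iNSLCs against fibroblasts were 0.30 and 0.04. Among those named, CHEK2 against iNSLCs lost its call without the filter (adjusted p = 0.0655) and with DESeq2 (0.171), CBX8 against fibroblasts lost it with total counts (0.138) and without the filter (0.0714), EZH2 against iNSLCs without the filter (0.0543) and with DESeq2 (0.0789), PLK2 and BMI1 against iNSLCs without the filter (0.0856 and 0.0735), and TP53I3 against iNSLCs with DESeq2 (0.0518). Leaving out a clone left no residual degrees of freedom, so it gave ratios and no test. No paired analysis was possible because only the iPSC clones carry numbers in the labels and the other groups have 1 library each. CDKN2C and CDKN2A in iPSCs rest on 32 to 71 counts per library, so their folds are less precise than those of MDM2 or CCND2.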
